A study of Danio rerio with 16 samples.

Results

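The genes described here are the zebrafish rows whose symbols name a Wnt, Fgf or Bmp family member, taken by their symbol and kept where at least 10 counts were found over the 16 libraries. Of 32520 rows in the count table, 72 had such a symbol and 68 were kept, 24 of them Wnt genes, 30 Fgf genes and 14 Bmp genes. The 4 rows left out were fgf6b with 7 counts in all, fgf9 with 0, and a pair of rows named wnt8a with 0 each. Reads that map to several places or to overlapping genes were not counted by the authors. Whether that left the wnt8a rows at 0 was not tested, so they do not show that the gene was silent. The kept genes with the fewest counts were fgf5 with 26 and fgf7 with 33.

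RNA was taken from whole embryos at 15 h post fertilization (hpf), a stage at which the trunk is forming somites and the first blood precursors lie in the lateral mesoderm. The 8 genotypes, with 2 libraries each, combine loss and presence of the transcriptional repressor genes gfi1aa, gfi1b and gfi1ab in every way. Besides wild type (WT) there are gfi1aa-/-, gfi1b-/-, gfi1ab-/-, every double mutant (DM) of these, (gfi1b/1ab DM, gfi1aa/1ab DM, gfi1aa/1b DM) and the triple mutant gfi1 TM, with the alleles smu10 of gfi1aa, smu11 of gfi1b and smu12 of gfi1ab. The study describes gfi1b smu11 as an insertion and gfi1ab smu12 as a deletion made with CRISPR/Cas9, both predicted to break the zinc finger domains. Each single mutant came from its own heterozygous intercross. The gfi1aa/1b DM embryos came from parents that all lacked gfi1b, the gfi1aa/1ab DM embryos from parents that all lacked gfi1ab, and the gfi1 TM embryos from parents that all lacked gfi1aa and gfi1b. WT embryos were wild-type siblings, and the sources used here name no cross for gfi1b/1ab DM. Genotype and clutch therefore cannot be told apart, and nothing says whether the 2 libraries of a genotype came from separate clutches, so the p-values measure the spread between these libraries, which may be technical.

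Wnt, Fgf and Bmp proteins are mostly secreted signals. Wnt ligands bind Frizzled receptors and act either through beta-catenin or, like Wnt5 and Wnt11 proteins, on cell movement and polarity. Fgf ligands bind receptor tyrosine kinases and pattern the tailbud, the midbrain-hindbrain boundary, the ear and the limb buds, while Bmp ligands bind serine/threonine kinase receptors and set up ventral and posterior fates, blood-forming mesoderm among them. Some genes carry a family name without being such ligands. Fgf11 to Fgf14 proteins stay inside the cell, and bmp1a and bmp1b encode secreted proteases that cut procollagens and the Bmp inhibitor Chordin. The term ligand genes below stands for all genes taken by symbol, these included. No count, share or sum leaves them out.

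Library totals ran from 15657371 to 22524501 counts on genes (median 19442820). The 68 genes held 9932 to 13260 counts per library, or 0.0561% to 0.0643% of all counts, and 66 to 68 of them had at least 1 count. The quasi-likelihood test of edgeR was run on 19903 genes, with Benjamini-Hochberg adjustment over all of them and a threshold of 0.05. Log2 fold changes are given ± their standard error, and 58 of the 68 genes had enough counts to be tested (21 Wnt, 24 Fgf and 13 Bmp). The other 10, fgf1a, fgf5, fgf6a, fgf7, fgf11a, fgf19, wnt2, wnt2ba, wnt6a and bmp10, reached at most 0.5002 CPM (counts scaled to the normalized library size). Every marker gene found in the table for muscle, erythroid, endothelial, tailbud, notochord, neural, epidermal, hatching gland and endodermal cells had counts. The standard deviation of log2 differences between the 2 libraries of a genotype was between 0.347 (gfi1aa-/-) and 0.602 (gfi1 TM). Of the targeted genes, gfi1aa transcripts were lower in the libraries labelled as lacking it (log2 fold change -0.27 ± 0.080, adjusted p = 0.0377). With loss of gfi1b its own transcript had a log2 fold change of 0.065 (adjusted p = 0.814), and with loss of gfi1ab its own transcript was higher (0.49, adjusted p = 0.0216). The counts of gfi1b (47 to 120) and gfi1ab (23 to 74) therefore do not check the labels. A small insertion or deletion can leave a transcript to be counted, and whether it did so here was not tested. These are whole embryos, so fewer cells that make a transcript and less transcript per cell cannot be told apart in any value below.

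Ligand genes with higher levels stood at similar levels in all 8 genotypes, and the wide ratios belonged to genes with few counts. Over the 58 genes tested, the highest genotype mean was 1.56 times the lowest (median, range 1.12 to 13.8). Among the 29 with a mean above 5 CPM, 23 had a ratio under 1.5, and the largest was 1.80. The summed level of all Wnt genes lay between 267 and 312 CPM in the 16 libraries, that of Fgf genes between 111 and 129, and that of Bmp genes between 174.5 and 225. The protease gene bmp1a alone held 55 to 104.5 CPM of the Bmp sum.

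In each family the 3 genes with the most counts are given first. Counts grow with transcript length, so no order between genes is read from them. Among the Wnt genes these were wnt11 (ENSDARG00000014796, older name wnt11r), wnt5b (ENSDARG00000102464, the pipetail gene of tail extension) and wnt16, which is described with loss of gfi1b. The wnt11 level in WT was 77.4 and 76.0 CPM, and in the mutants it was between 69.9 and 89.2. The wnt5b level in WT was 51.8 and 58.7 CPM, with 48.1 to 63.6 in the mutants. Neither moved past the threshold in any mutant against WT. Of the 3 losses, wnt11 came nearest with that of gfi1b (log2 fold change 0.12 ± 0.037, adjusted p = 0.0500035), just outside the threshold. Among the Fgf genes these were fgf17 (ENSDARG00000102778) and fgf3 (ENSDARG00000101540), a signal of the hindbrain and ear, beside fgf8a. The fgf17 level was 19.1 and 22.4 CPM in WT and 18.4 to 26.8 in the mutants, and fgf3 was at 16.2 and 17.7 CPM in WT and 12 to 18.6 in the mutants. Among the Bmp genes, bmp3 (ENSDARG00000060526) was at 33.2 and 30.7 CPM in WT and at 29.1 to 37.1 in the mutants. The ventral signal bmp4 (ENSDARG00000019995) was at 17.3 and 18.5 CPM in WT and at 15.0 to 20.9 in the mutants. fgf17, fgf3 and bmp3 passed the threshold in none of the 16 comparisons.

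The 16 comparisons were loss of each gfi1 gene (8 libraries that lack it against 8 that keep it, averaged over genotypes), each of the 7 mutants against WT, loss of gfi1aa in 3 mutant backgrounds, and the 3 interactions between pairs of gfi1 genes. With loss of gfi1ab, 7 of 58 ligand genes changed (12.1%), where 23.9% of all genes tested did. With loss of gfi1aa, 5 changed (8.62%) beside 14.6% of all genes, and with loss of gfi1b, 5 (8.62%) beside 9.74%. The median log2 fold change of the 58 genes was 0.0064, 0.0076 and -0.0053 with loss of gfi1ab, gfi1aa and gfi1b, beside 0.0061, 0.0022 and 0.0078 over all genes. In each of the 16 comparisons the share of ligand genes past the threshold was below the share of all genes, but the comparisons share libraries and this difference was not tested. The 58 genes were not matched to all genes by level. At an unadjusted p under 0.05 (edgeR) the order was reversed in gfi1 TM against gfi1b/1ab DM, with 13 of 58 ligand genes beside 3237 of all 19903. In all, 22 of the 58 genes passed the threshold in at least 1 comparison and 36 in none. The share of all genes that passed in at least 1 comparison was not counted. The 95% interval of the log2 fold change lay within -1 and 1 for 52 genes with loss of gfi1ab, for 51 with loss of gfi1aa and for 51 with loss of gfi1b, and within -0.5 and 0.5 for 39, 44 and 37.

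**Figure D1:**
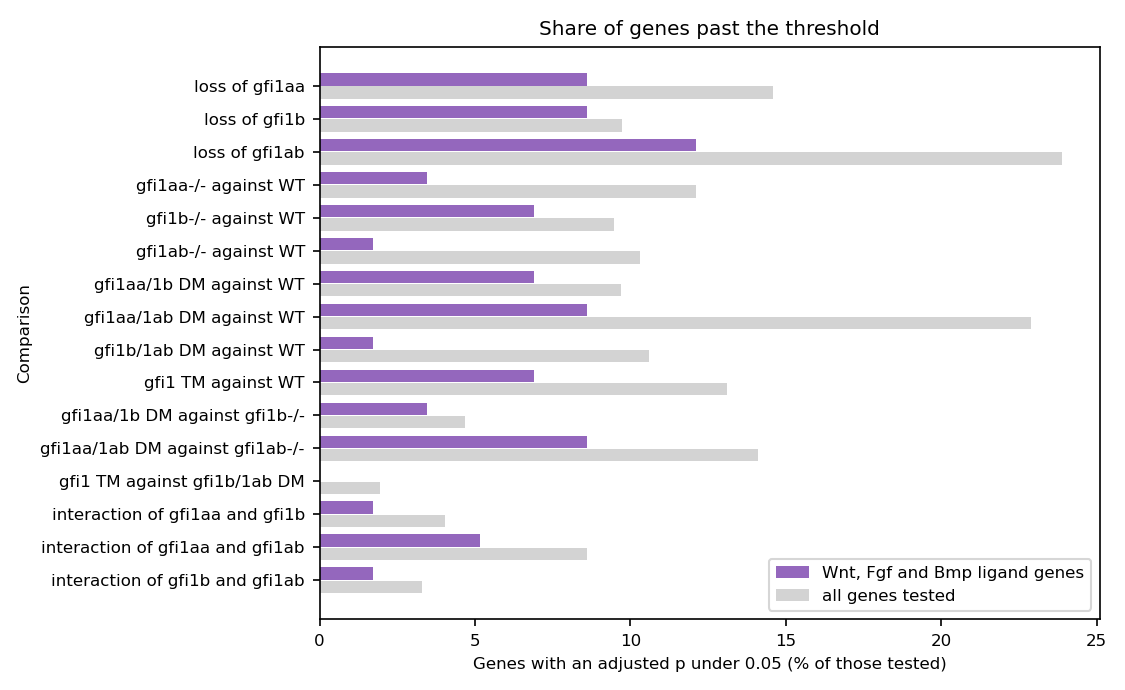
Percentage of the 58 tested ligand genes (purple) and of all 19903 tested genes (grey) with an adjusted p under 0.05 (horizontal axis) in each of the 16 comparisons (vertical axis). The purple bar is shorter than the grey bar in each comparison, for example 12.1% against 23.9% with loss of gfi1ab, and it is at 0 for gfi1 TM against gfi1b/1ab DM.

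Loss of gfi1ab went with lower fgf2, wnt11f2, bmp7a and bmp1a and with higher wnt5a, bmp5 and fgf18b. wnt5a (ENSDARG00000104973), a ligand of cell polarity, had 12 to 27 counts in every library except those of gfi1ab-/- and gfi1b/1ab DM, which had 31 to 55. In CPM it was at 1.81 and 2.47 in gfi1ab-/- and at 1.92 and 2.49 in gfi1b/1ab DM, against 1.15 and 1.05 in WT and 0.926 and 0.634 in gfi1b-/-. In the mutants that lack gfi1aa as well it was at 1.21 and 1.12 (gfi1aa/1ab DM) and at 1.07 and 1.17 (gfi1 TM), beside 0.818 and 1.17 in gfi1aa-/- and 0.775 and 1.05 in gfi1aa/1b DM. The high libraries were the 4 that lack gfi1ab and keep gfi1aa. This grouping was read from the wnt5a values themselves, so it is no test, and its share over all genes was not counted. Over all genotypes the log2 fold change with loss of gfi1ab was 0.74 ± 0.17 (adjusted p = 0.00567). The difference between the effect without and with gfi1aa, given by the interaction term, was -0.99 ± 0.33 (adjusted p = 0.0788) and did not pass the threshold. The related wnt5b had a log2 fold change of -0.048 (adjusted p = 0.521).

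wnt11f2 (ENSDARG00000004256), the silberblick gene of cell movement in the gastrula, was between 9.89 and 14.4 CPM (median 11.8) in the libraries without gfi1ab and between 12.4 and 16.7 (median 14.8) in those with it. The ranges overlapped, and the mean was lower in all 4 backgrounds. The log2 fold change was -0.27 ± 0.067 (adjusted p = 0.00977), and the call was lost where only the sides with and without gfi1ab were fitted (adjusted p = 0.0776). The related wnt11 had -0.026 (adjusted p = 0.657).

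fgf2 (ENSDARG00000104348), which encodes a growth factor active on mesoderm and vessels, was the only ligand gene with no overlap between the 8 libraries that lack gfi1ab and the 8 that keep it, beside 0.899% of all genes. With loss of gfi1aa and of gfi1b, 0 of the 58 ligand genes had no overlap, beside 0.538% and 0.231% of all genes. fgf2 was between 2.67 and 4.41 CPM (median 3.79) without gfi1ab and between 4.53 and 7.38 (median 5.31) with it. The mean was lower in each of the 4 backgrounds, from 6.04 to 4.07 CPM in gfi1ab-/- against WT and from 6.24 to 3.34 in gfi1 TM against gfi1aa/1b DM. The gap between the sides was narrow, with gfi1b-/- replicate 2 at 4.53 CPM and gfi1ab-/- replicate 2 at 4.41, and the WT replicates themselves were at 4.70 and 7.38. Averaged over genotypes, the log2 fold change was -0.59 ± 0.12 (adjusted p = 0.00375). fgf18b (ENSDARG00000043962) rose slightly, from a median of 13.1 CPM (10.4 to 14.5) to 14.7 (13.2 to 16.1), with a log2 fold change of 0.17 ± 0.059 (adjusted p = 0.0471). This call was lost without any 1 of 14 libraries and under all 6 other settings. The duplicate fgf18a had a log2 fold change of 0.42 ± 0.16 (adjusted p = 0.0724).

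bmp5 (ENSDARG00000101701) was between 7.97 and 11 CPM (median 8.57) without gfi1ab and between 4.66 and 8.49 (median 6.90) with it. Only the gfi1aa-/- replicate at 8.49 reached into the range of the other side, and the mean was higher in each of the 4 backgrounds, though by only 0.033 on the log2 scale in gfi1aa/1ab DM against gfi1aa-/-. Its log2 fold change was 0.40 ± 0.086 (adjusted p = 0.00446). bmp7a (ENSDARG00000018260), the snailhouse gene of ventral fates, had the opposite sign, with a log2 fold change of -0.33 ± 0.087 (adjusted p = 0.0134), and bmp1a (ENSDARG00000028071) had -0.22 ± 0.046 (adjusted p = 0.00367). For both the means were lower in 3 of 4 backgrounds, and the exception was gfi1ab-/- against WT. The calls for bmp7a and bmp1a were lost in a model without interactions (adjusted p = 0.0939 and 0.0556). They were also lost where only the sides with and without gfi1ab were fitted (adjusted p = 0.178 and 0.192). The calls for wnt5a, fgf2 and bmp5 held under each setting tried and without any 1 library.

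Genes of muscle and other tissues also moved with this loss, beside 23.9% of all genes. Of 13 muscle genes, 7 were higher and 1 was lower without gfi1ab, with a summed level of 1274 to 1743 CPM against 1260 to 1653. Of 8 endothelial genes 5 were higher, and of 3 notochord genes shha and col2a1a were lower (391 to 1322 CPM in sum, most of it col2a1a, against 702 to 1389). Of 5 hatching gland rows 4 were higher, of 3 epidermal genes 2 were higher, of 8 erythroid genes 3 were higher and 1 lower, and of 6 neural genes 1 was higher and 2 lower. Of 6 tailbud genes 1 was lower, and of 2 endodermal genes 1 was lower. No gene of these lists was at 0 in all libraries. Their part in the values above was not tested.

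**Figure D2:**
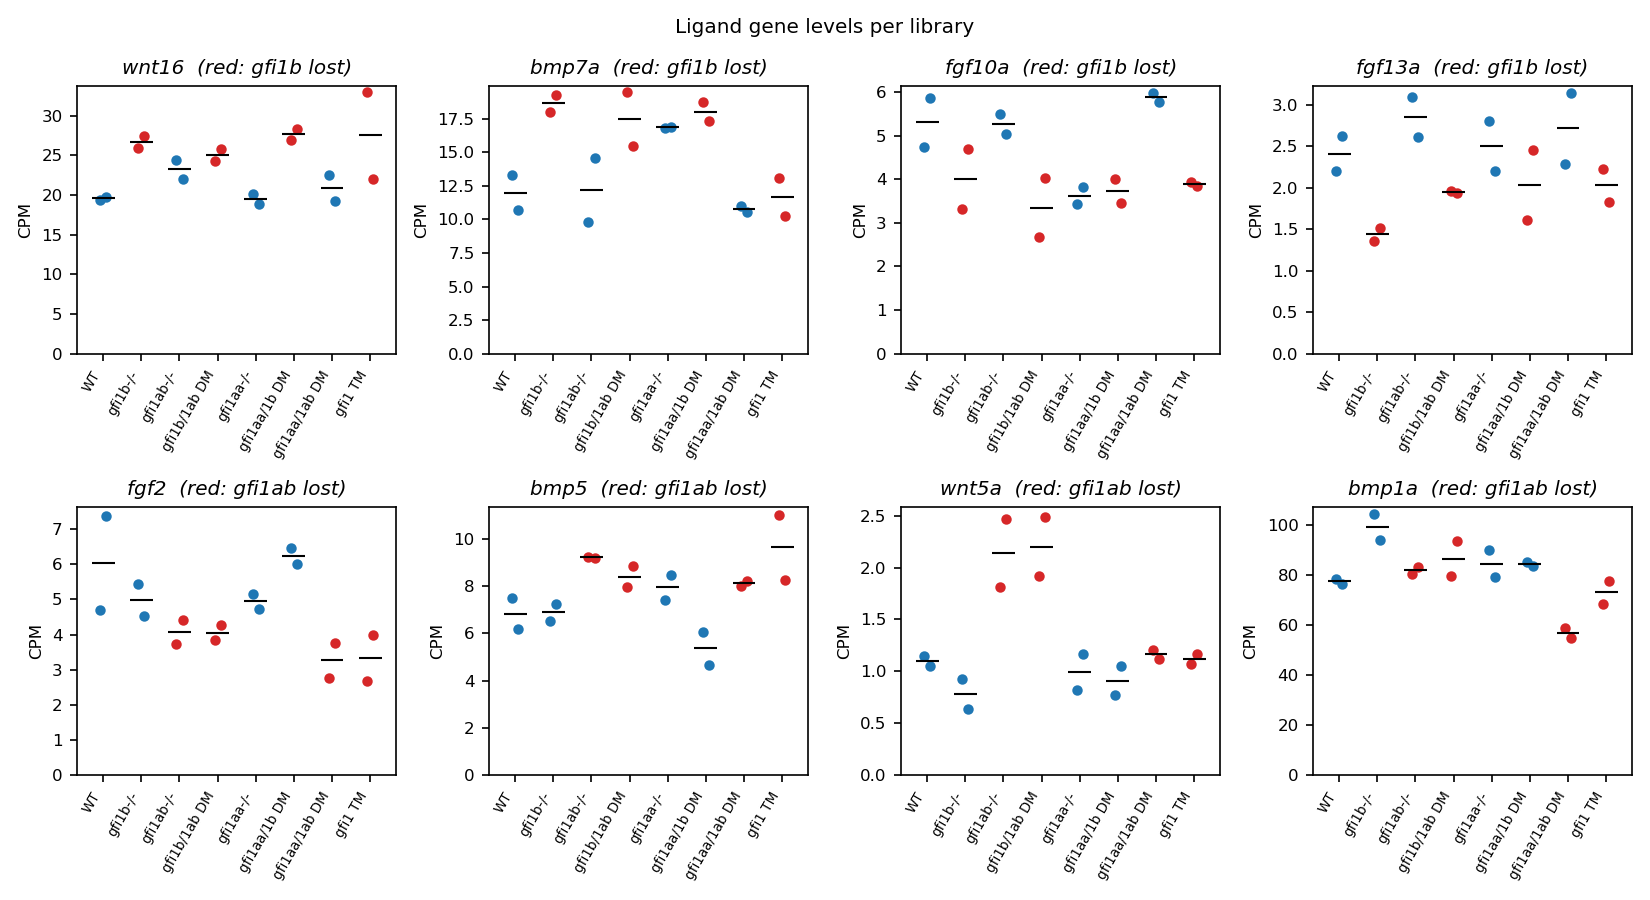
Level of 8 ligand genes in CPM (vertical axes, from 0) in the 8 genotypes (horizontal axes), with 1 point per library and a bar at the genotype mean; red marks the genotypes that lack the gene named in each title, blue the others. The wnt5a panel shows the 4 libraries of gfi1ab-/- and gfi1b/1ab DM at 1.81 to 2.49 CPM and all others at or under 1.21, and the fgf2 panel shows every red point under every blue one.

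Loss of gfi1b went with higher wnt16, bmp7a and bmp1a and lower fgf10a and fgf13a. wnt16 (ENSDARG00000094973) is expressed in somites, where its signal is needed for blood stem cells to be specified. It was between 22 and 33.1 CPM (median 26.4) without gfi1b and between 18.8 and 24.4 (median 20.0) with it. The WT libraries were at 19.4 and 19.8 CPM, gfi1b-/- at 25.9 and 27.5, and gfi1aa/1b DM at 26.9 and 28.4, while the gfi1 TM libraries were far apart at 33.1 and 22. The ranges overlapped through gfi1 TM replicate 2 and gfi1b/1ab DM replicate 1 (24.3) without gfi1b and both gfi1ab-/- libraries (24.4 and 22.1) and gfi1aa/1ab DM replicate 1 (22.5) with it, and the mean was higher in all 4 backgrounds, by 0.11 to 0.50 on the log2 scale. The log2 fold change was 0.36 ± 0.072 (adjusted p = 0.00578), and the call held under each setting tried and without any 1 library. None of the 13 muscle genes passed the threshold with this loss, beside 9.74% of all genes. At an unadjusted p under 0.05 (edgeR) there was 1, beside 4859 of all 19903 genes. The summed level of the muscle genes was 1260 to 1650 CPM without gfi1b and 1274 to 1743 with it. Of the other marker lists, 2 of 6 neural genes (pax2a and egr2b) and 2 of 5 hatching gland rows were higher.

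fgf10a (ENSDARG00000030932), the limb bud signal, was between 2.67 and 4.68 CPM (median 3.88) without gfi1b and between 3.43 and 5.97 (median 5.26) with it. The gfi1aa-/- libraries, which keep gfi1b, were at 3.43 and 3.81, inside the range of those that lack it. Over all backgrounds the log2 fold change was -0.40 ± 0.11 (adjusted p = 0.0335), and the duplicate fgf10b had -0.13 (adjusted p = 0.50). fgf10a lies close to gfi1b on the chromosome, as described with the neighbours below. fgf13a (ENSDARG00000035056), whose product binds sodium channels inside the cell, was between 1.36 and 2.46 CPM (median 1.89) without gfi1b and between 2.20 and 3.14 (median 2.61) with it. The mean was lower in all 4 backgrounds, though the ranges overlapped. On the log2 scale the difference was -0.49 ± 0.13 (adjusted p = 0.0322), against -0.18 (adjusted p = 0.225) for its duplicate fgf13b. Leaving out 1 library ended the call of fgf10a for 11 of 16 libraries and that of fgf13a for 9 of 16, and DESeq2 called neither. Both calls were also lost in a model without interactions and where only the sides with and without gfi1b were fitted.

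bmp7a was between 10.3 and 19.5 CPM (median 17.7) without gfi1b and between 9.80 and 16.9 (median 12.2) with it. It was at 18 and 19.3 CPM in gfi1b-/-, 16.8 and 16.9 in gfi1aa-/-, 18.7 and 17.3 in gfi1aa/1b DM and 19.5 and 15.5 in gfi1b/1ab DM. It was at 13.3 and 10.7 in WT, 9.80 and 14.6 in gfi1ab-/-, 11 and 10.5 for gfi1aa/1ab DM, with 13.1 and 10.3 in gfi1 TM. All libraries of the first 4 of these genotypes thus lay above all libraries of the other 4, and the first 4 include gfi1aa-/-, which keeps gfi1b. This grouping was made from the bmp7a values themselves, so the split is no test. How many of all genes split in such a way was not counted. The log2 fold change with loss of gfi1b was 0.34 ± 0.087 (adjusted p = 0.0237), and leaving out 1 library ended the call for 7 of 16 libraries. bmp1a had 0.20 ± 0.046 (adjusted p = 0.0155). In a model without interactions neither passed (adjusted p = 0.187 and 0.205), nor where only the sides with and without gfi1b were fitted (adjusted p = 0.344 and 0.480). The duplicate bmp7b was at -0.22 (adjusted p = 0.105).

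Loss of gfi1aa went with higher fgf20b, bmp2a, wnt9b and fgf8a and lower bmp1a, and the ranges of the libraries with and without gfi1aa overlapped for all 5. fgf20b (ENSDARG00000086070), the duplicate of the fin regeneration gene fgf20a, had only 7 to 21 counts per library. It was between 0.511 and 1.36 CPM (median 0.753) without gfi1aa and between 0.348 and 0.619 (median 0.446) with it. The highest libraries, at 1.36 and 1.1, were those of gfi1aa/1b DM, and the mean was higher in all 4 backgrounds. The log2 fold change was 0.75 ± 0.21 (adjusted p = 0.0247), while fgf20a had -0.16 (adjusted p = 0.475). fgf8a (ENSDARG00000003399), the acerebellar gene of the midbrain-hindbrain boundary, was between 16.4 and 24.1 CPM (median 19.8) without gfi1aa and between 15.8 and 19.6 (median 17) with it. It was not higher in gfi1aa-/- (17 and 16.5 CPM) than in WT (15.8 and 19.6), and the difference lay in the double and triple mutants. Over all genotypes it differed by 0.19 ± 0.058 on the log2 scale (adjusted p = 0.0402), and fgf8b had 0.032 (adjusted p = 0.935).

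bmp2a (ENSDARG00000013409) was between 3.17 and 4.70 CPM (median 4.22) without gfi1aa and between 2.49 and 3.95 (median 3.46) with it, higher in all 4 backgrounds, with a log2 fold change of 0.30 ± 0.089 (adjusted p = 0.0337). Its duplicate bmp2b, the swirl gene of ventral fates, had 0.016 (adjusted p = 0.91). wnt9b (ENSDARG00000037889), needed for the kidney and the face in the mouse, was between 2.58 and 5.19 CPM (median 3.20) against 2.12 to 3.25 (median 2.53), with a log2 fold change of 0.43 ± 0.13 (adjusted p = 0.0456), and wnt9a had -0.096 (adjusted p = 0.757). These 4 rises were lost with DESeq2, in a model without interactions and where only the sides with and without gfi1aa were fitted. Leaving out 1 library ended the call for 6 (fgf20b), 11 (bmp2a), 12 (fgf8a) and 14 (wnt9b) of 16 libraries, with adjusted p up to 0.119. In the same comparison all 8 endothelial genes were higher (229 to 298 CPM in sum against 163 to 183) and 7 of 8 erythroid genes were lower (15.2 to 26.8 against 65.4 to 97.1). Most genes of the endothelial and erythroid lists are ones that the study shows as changed in these same data, so these counts are no independent readout. Of other lists, 2 of 3 notochord, 2 of 6 tailbud and 2 of 13 muscle genes were lower, beside 14.6% of all genes. Of 5 hatching gland rows 1 was higher and 2 were lower. Of 6 neural, 3 epidermal and 2 endodermal genes 0 passed. At an unadjusted p under 0.05 (edgeR) there were 2, 2 and 0, beside 5868 of all 19903 genes. The part of these tissues in the ligand values was not tested.

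bmp1a was the ligand-named gene that passed the threshold most often, in 7 of the 16 comparisons. It stood at 78.5 and 76.5 CPM in WT, 105 and 93.8 in gfi1b-/-, 80.4 and 83.3 in gfi1ab-/- and 90.0 and 79.1 in gfi1aa-/-. It was at 85.3 and 83.4 in gfi1aa/1b DM, 79.7 and 93.4 in gfi1b/1ab DM, 68.4 and 77.6 in gfi1 TM, with the lowest values, 59 and 55, in gfi1aa/1ab DM. gfi1b-/- was thus at the top, and the gfi1aa/1ab DM libraries were below all others. The log2 fold change with loss of gfi1aa was -0.22 ± 0.046 (adjusted p = 0.00622). The call was lost in a model without interactions (adjusted p = 0.102) and where only the sides with and without gfi1aa were fitted (adjusted p = 0.3165). For gfi1aa/1ab DM the log2 fold change was -0.44 ± 0.094 (adjusted p = 0.00407) against WT and -0.52 ± 0.094 (adjusted p = 0.00279) against gfi1ab-/-. Of the notochord genes, col2a1a, which encodes a procollagen, was also at its lowest in the gfi1aa/1ab DM libraries, with 353 and 365 CPM beside 1335 and 1271 in WT. The notochord gene shha was lower there as well (28.2 and 29.8 against 44.2 and 41.5 CPM), while noto was at 9.47 and 13 against 9.69 and 8.71. The levels did not move together in every genotype. In gfi1b-/-, where bmp1a was highest, the summed level of the notochord genes was 916 to 1144 CPM, against 1321 to 1389 in WT. In gfi1aa-/-, where bmp1a was not below WT, that sum was 702 to 1085. The part of the notochord genes in the bmp1a value was not tested.

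**Figure D3:**
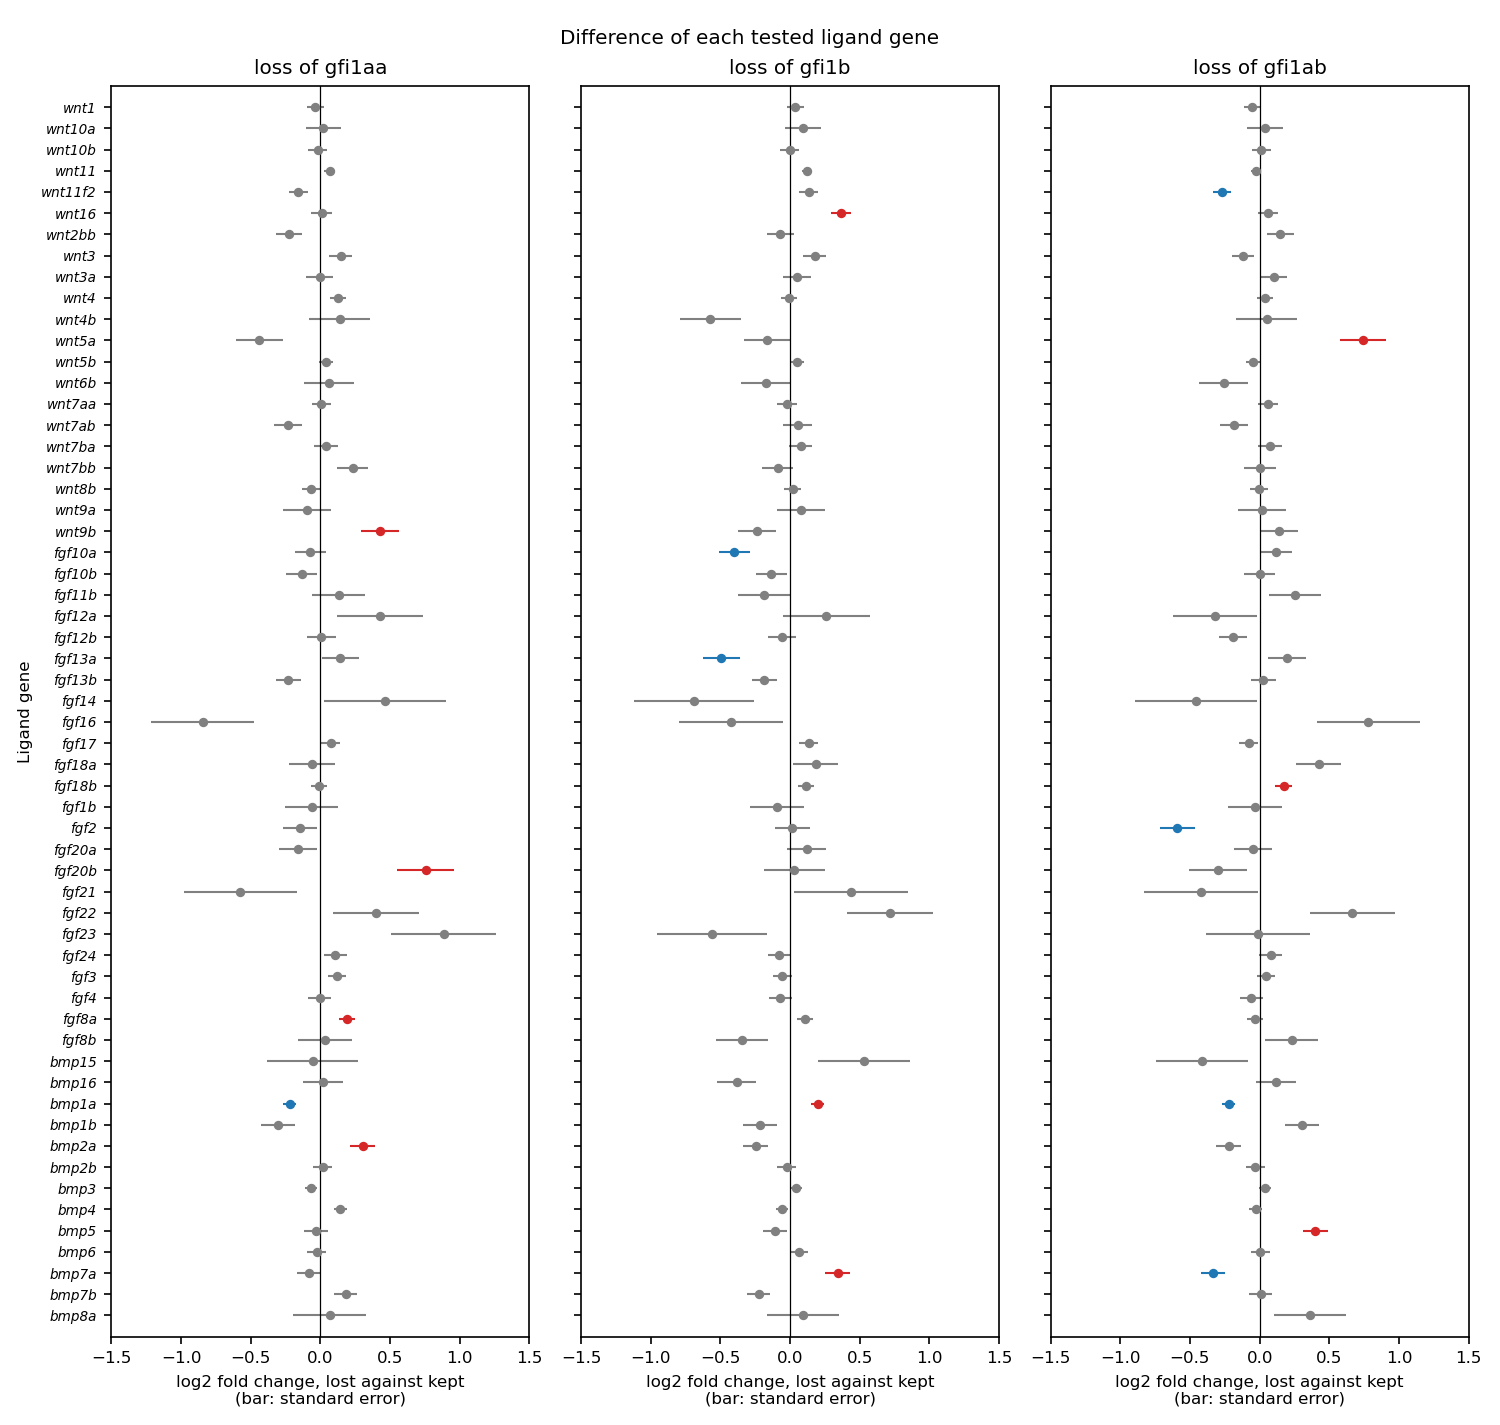
Log2 fold change (horizontal axes, libraries that lack the gene against those that keep it; bars are standard errors) of the 58 tested ligand genes (vertical axis, Wnt, Fgf, then Bmp genes) with loss of gfi1aa, gfi1b and gfi1ab, with genes past the threshold in red (higher) or blue (lower). Most points lie near 0, the wide bars belong to genes with few counts, and 5, 5 and 7 points are coloured.

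Against WT alone, few ligand genes changed in any mutant, and all 7 comparisons share the same pair of WT libraries. The counts were 2 in gfi1aa-/- (beside 12.1% of all genes), 4 in gfi1b-/- (9.46%), 1 in gfi1ab-/- (10.3%), 4 for gfi1aa/1b DM (9.69%), 5 for gfi1aa/1ab DM (22.9%), 1 in gfi1b/1ab DM (10.6%) and 4 in gfi1 TM (13.1%). The gene called most often was fgf22 (ENSDARG00000076510), related to Fgf7 and Fgf10 and known in the mouse as an organizer of synapses. It had 3 and 2 counts in the WT libraries, 12 and 20 in gfi1aa-/-, 12 and 16 in gfi1b-/-, 13 and 23 in gfi1b/1ab DM and 20 and 8 in gfi1 TM. It had 8 and 7 in gfi1ab-/-, 5 and 6 in gfi1aa/1b DM and 14 and 5 in gfi1aa/1ab DM. Every mutant library thus had more counts than either WT library. The share of all genes with this pattern was not counted. The ratio of counts to WT, scaled by library size, was 6.15 in gfi1aa-/- (95% exact counting interval 2.38 to 20.2), 5.91 in gfi1b-/- (2.25 to 19.6), 7.39 in gfi1b/1ab DM (2.89 to 24.1), 5.95 in gfi1 TM (2.27 to 19.7) and 4.53 in gfi1aa/1ab DM (1.64 to 15.5). These 5 passed the edgeR test, with adjusted p of 0.0231, 0.0344, 0.0139, 0.0286 and 0.0482. The ratios of 3.12 in gfi1ab-/- (1.08 to 10.99) and 2.61 in gfi1aa/1b DM (0.836 to 9.58) came with adjusted p of 0.216 and 0.345. The intervals cover counting error only, and without either 1 of the WT libraries all 5 calls were lost. The gfi1aa/1ab DM call was lost without any 1 of 13 of the 16 libraries, and its log2 fold change went from 2.13 to 1.16 (adjusted p = 0.418) without gfi1aa/1ab DM replicate 1. Of the 5 calls, DESeq2 made that in gfi1b/1ab DM alone.

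fgf23 (ENSDARG00000045854), a hormone of phosphate balance, also had very few counts in WT, 1 and 2. It had 9 and 11 in gfi1b-/-, 7 and 10 in gfi1aa-/- and 11 and 24 in gfi1aa/1ab DM, but 1 and 3 in gfi1b/1ab DM and 1 and 4 in gfi1 TM. The gfi1ab-/- libraries had 4 and 6 counts, and those of gfi1aa/1b DM 3 and 5. Ratios to WT were 7.04 (2.09 to 37.0) in gfi1b-/- and 13.9 (4.38 to 70.7) in gfi1aa/1ab DM, with adjusted p of 0.0345 and 0.00187. DESeq2 did not make the gfi1b-/- call, which also ended without any 1 of the 4 libraries compared. In the fit with only those 4 libraries, fgf23 had too few counts to pass the filter and was not tested. The gfi1aa/1ab DM call was made by DESeq2 and without any 1 library. Unlike fgf22, it was not above WT in every mutant library, as gfi1b/1ab DM replicate 1 and gfi1 TM replicate 1 had 1 count each.

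The other calls against WT were as follows. bmp1b was lower in gfi1aa/1b DM (log2 fold change -1.24, adjusted p = 0.00728), at 1.42 and 1.73 CPM against 4.55 and 2.95. wnt7ab was at 8.04 and 6.52 CPM in WT and lower in gfi1aa-/- (4.91 and 4.33) and gfi1 TM (5.53 and 3.5), with log2 fold changes of -0.66 (adjusted p = 0.0445) and -0.68 (adjusted p = 0.0393). wnt16 was higher in gfi1aa/1b DM (0.50, adjusted p = 0.0443) and gfi1 TM (0.49, adjusted p = 0.037), and fgf2 was lower in gfi1aa/1ab DM (-0.88, adjusted p = 0.0198) and gfi1 TM (-0.87, adjusted p = 0.0322). bmp7a was higher in gfi1b-/- (0.64, adjusted p = 0.031) and gfi1aa/1b DM (0.59, adjusted p = 0.0471), bmp1a in gfi1b-/- (0.36, adjusted p = 0.0258), fgf8a in gfi1aa/1b DM (0.41, adjusted p = 0.0361) and fgf18a in gfi1ab-/- (1.12, adjusted p = 0.0394). wnt11f2 was lower in gfi1aa/1ab DM (-0.46, adjusted p = 0.0231). Several of these calls depended on single libraries. Of the 16 fits that each left out 1 library, wnt7ab was called in 4 (gfi1aa-/-) and 5 (gfi1 TM), and wnt16 in 4 (gfi1aa/1b DM) and 6 (gfi1 TM). bmp7a in gfi1aa/1b DM was called in 5 of them, fgf18a in 6 and fgf8a in 10, while the other 6 calls of this paragraph were made in 12 to 14. DESeq2 made neither wnt7ab call and called neither fgf8a nor fgf18a.

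Loss of gfi1aa was also compared within mutant backgrounds. In gfi1aa/1b DM against gfi1b-/-, 2 ligand genes changed, where 4.67% of all genes did. bmp1b (ENSDARG00000028053) fell from 3.43 and 2.97 CPM to 1.42 and 1.73 (log2 fold change -1.01 ± 0.26, adjusted p = 0.041), and fgf20b rose from 7 and 10 counts to 21 and 21 (1.47 ± 0.40, adjusted p = 0.0495). Neither was called by DESeq2, and the calls ended without any 1 of 8 (bmp1b) and 14 (fgf20b) of 16 libraries. When gfi1aa/1ab DM was set against gfi1ab-/-, 5 changed, beside 14.1% of all genes. wnt3, a beta-catenin ligand, rose from 4.26 and 4.27 CPM to 6.64 and 5.999 (0.56, adjusted p = 0.0346), wnt11 from 70.9 and 70.3 to 84.2 and 84.4 (0.26, adjusted p = 0.0321) and bmp4 from 17.1 and 16.5 to 20.9 and 20.6 (0.30, adjusted p = 0.0424). DESeq2 called none of these 3, and leaving out 1 library ended the call for 6 (wnt3), 7 (wnt11) and 14 (bmp4) of 16 libraries. fgf23 rose as well, from 4 and 6 counts to 11 and 24 (1.97, adjusted p = 0.0307), and bmp1a fell as given above. The fgf23 call was not made by DESeq2 or with only the 4 libraries compared, and leaving out 1 library ended it for 3 of 16. In gfi1 TM against gfi1b/1ab DM no ligand gene passed the threshold in the edgeR test, beside 1.96% of all genes, or with DESeq2. At an unadjusted p under 0.05 in the edgeR test there were 13 of 58 ligand genes, a larger share than the 3237 of all 19903 genes.

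The interactions ask whether the effect of losing 1 gfi1 gene differs with the state of another. For gfi1aa and gfi1ab 3 ligand genes passed the threshold, the protease genes bmp1b and bmp1a among them, beside 8.60% of all genes. bmp1b had the largest of these terms, at 1.05 ± 0.24 (adjusted p = 0.0164). It was at 4.55 and 2.95 CPM in WT, 3.43 and 2.97 in gfi1b-/-, 2.30 and 2.47 in gfi1aa-/- and 1.42 and 1.73 in gfi1aa/1b DM. With gfi1ab lost it was at 3.15 and 2.70 in gfi1ab-/- and 3.28 and 2.78 in gfi1b/1ab DM, while the gfi1aa/1ab DM libraries had 3.74 and 3.42 and those of gfi1 TM 3.69 and 3.001. The 4 libraries that lack gfi1aa and keep gfi1ab were below the other 12. This split was read from the bmp1b values themselves, so it is no test, and its share over all genes was not counted. The interaction call of bmp1b held under each setting tried and without any 1 library. bmp7a had a term of -0.60 ± 0.17 (adjusted p = 0.0447) and bmp1a of -0.33 ± 0.093 (adjusted p = 0.0397), so that bmp1a and its duplicate bmp1b had terms of opposite sign. The bmp7a and bmp1a calls were lost without any 1 of 11 (adjusted p up to 0.122) and 10 (up to 0.108) of the 16 libraries. For gfi1aa and gfi1b only fgf22 passed (-2.28 ± 0.61, adjusted p = 0.0492, beside 4.02% of all genes), and for gfi1b and gfi1ab only fgf23 (-3.06 ± 0.73, adjusted p = 0.0366, beside 3.29%). Both rest on few counts, and the term takes in the very low WT libraries.

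**Figure D4:**
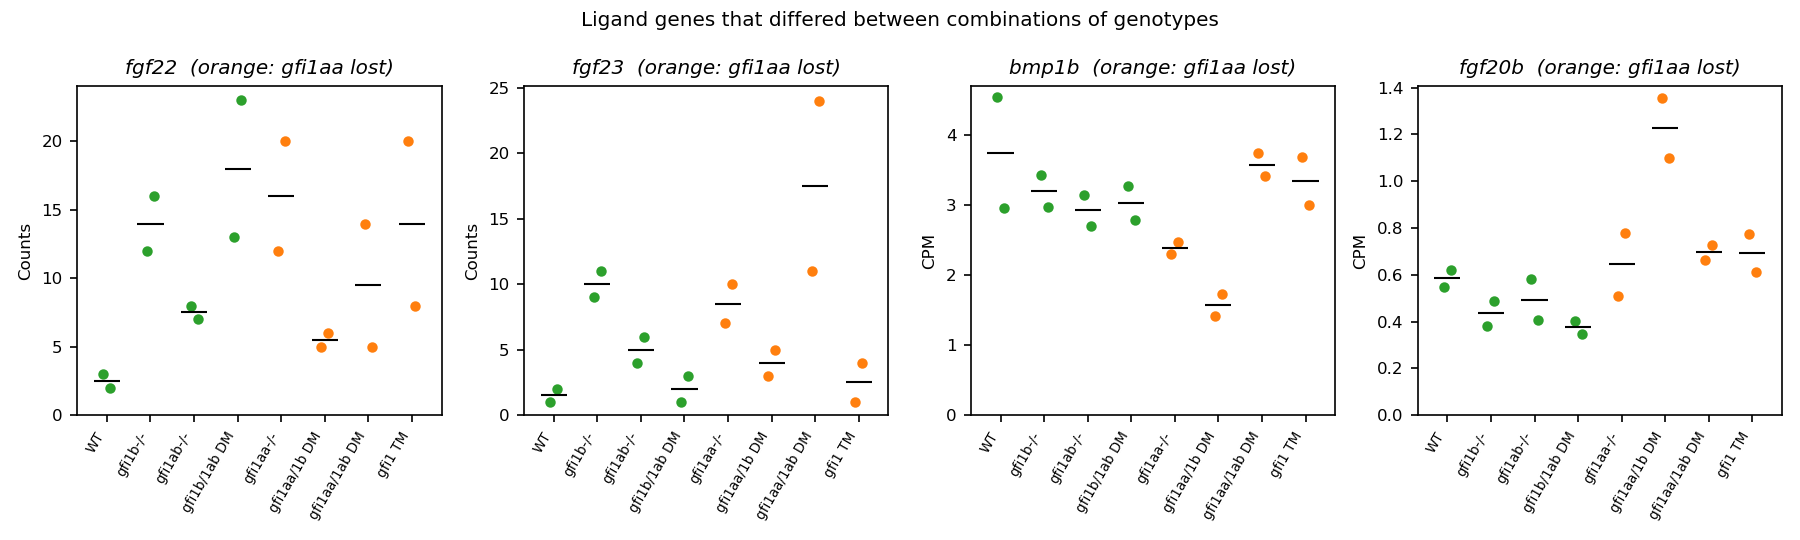
Counts of fgf22 and fgf23 and levels in CPM of bmp1b and fgf20b (vertical axes, from 0) in the 8 genotypes (horizontal axes), with 1 point per library and a bar at the genotype mean; orange marks genotypes that lack gfi1aa and green the others. The WT libraries are the lowest for fgf22 (3 and 2 counts), and the bmp1b points of gfi1aa-/- and gfi1aa/1b DM (1.42 to 2.47 CPM) lie under all others.

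Many ligand genes form pairs whose symbols differ only in a final a or b. The pairs were taken by symbol alone, and how each pair arose was not looked up. Of 18 such pairs, 14 had both members tested, which gave 224 pairs of tests over the 16 comparisons. In 26 of these 1 member passed the threshold, and in 1 both did, with opposite signs (bmp1a and bmp1b in the interaction of gfi1aa and gfi1ab). That 1 member passed and the other did not is no test of a difference between them. The same numbers for pairs of genes not matched by symbol were not counted.

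Mutants raised from carriers keep DNA of the founder fish near the targeted gene, so the order of genes around each gfi1 gene was looked up by symbol in the RefSeq annotation of GRCz12tu. Within 200 protein-coding genes on either side lay fgf12a, wnt9a and wnt3a for gfi1aa (118, 166 and 167 genes away), fgf10a for gfi1b (40 genes away) and no kept ligand gene for gfi1ab. Of the 241 tested neighbours of gfi1b 20.7% passed the threshold with its loss, against 9.74% of all genes. The shares were 27.9% against 14.6% for gfi1aa and 37.5% against 23.9% for gfi1ab. fgf10a was lower with loss of gfi1b, as given above, and the part of its position in that value was not tested. fgf12a (log2 fold change 0.42, adjusted p = 0.433), wnt9a and wnt3a (-0.0023, adjusted p = 0.986) did not pass with loss of gfi1aa.

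Receptors, inhibitors and targets of the 3 pathways were counted from lists. The calls of these genes and of the marker genes come from the main edgeR fit alone. They were not rerun under the other settings or without single libraries. With loss of gfi1b, 7 of 19 Wnt receptors and co-receptors were higher and 0 lower, beside 9.74% of all genes in either direction. These were the Frizzled genes fzd3a, fzd3b, fzd4, fzd5, fzd6 and fzd8a, with log2 fold changes between 0.17 and 0.24, and the co-receptor gene ptk7a (0.12). Against WT, 0 of the 19 passed in gfi1b-/- (beside 9.46% of all genes) and 0 in gfi1 TM (13.1%). In both, 4 were at an unadjusted p under 0.05 (edgeR), beside 4743 (gfi1b-/-) and 5666 (gfi1 TM) of all 19903 genes. In gfi1b/1ab DM 1 was lower (10.6%), and in gfi1aa/1b DM 2 were higher and 1 lower (9.69%). With loss of gfi1aa, 1 of the 19 was higher and 2 were lower, beside 14.6% of all genes. With that loss 1 of 7 Fgf receptors was higher and 2 lower, and 0 of 11 Bmp receptors passed. With loss of gfi1ab, 1 of the 19 was higher (fzd7a) and 5 were lower, of which fzd9b fell most (-0.46, adjusted p = 0.000899), and 3 of 7 Fgf receptors (fgfr1a, fgfr1b and fgfr2) and 3 of 11 Bmp receptors (acvr2aa, bmpr1ab and bmpr1bb) were lower, beside 23.9% of all genes. Of 16 Wnt inhibitors that act outside the cell, 2 were lower with the same loss, notum1a (-0.57, adjusted p = 2.93e-05) and sfrp1a (-0.56, adjusted p = 3.29e-05), and 1 was higher, dkk1b (0.27, adjusted p = 0.0459).

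Of 18 Bmp target and feedback genes, 5 were higher and 1 lower with loss of gfi1ab, beside 23.9% of all genes. The median log2 fold change of the 18 was 0.0037. The 5 included id1 (0.38, adjusted p = 0.000673) and id2b (0.54, adjusted p = 0.00178), which encode inhibitors of transcription factors and are induced by Bmp signals. Of 16 Fgf targets, 2 were lower (spry1 and tbxta), and of 13 Wnt targets 3 were higher (axin2, nkd1 and sp5l) and 1 lower (tbxta). With loss of gfi1aa, 2 of 18 Bmp targets were higher, 1 of 16 Fgf targets was higher and 2 lower, and 1 of 13 Wnt targets was higher and 2 lower, beside 14.6% of all genes. With loss of gfi1b the numbers were 0 of 18 (3 at an unadjusted p under 0.05), 0 of 16 (1 at an unadjusted p under 0.05) and 1 of 13, all in the edgeR test. Of all 19903 genes, 9.74% passed the threshold with this loss and 4859 were at an unadjusted p under 0.05. Against WT, 8 of 18 Bmp targets were higher and 0 lower in gfi1aa/1ab DM, beside 22.9% of all genes. In gfi1b-/- 4 were higher and 0 lower, beside 9.46%, and 4 were higher and 0 lower in gfi1 TM, beside 13.1%. Fewer were called in the other mutants, all of them higher. These were 2 in gfi1aa-/- (beside 12.1%), 2 in gfi1ab-/- (10.3%), 2 in gfi1aa/1b DM (9.69%) and 1 in gfi1b/1ab DM (10.6%). All comparisons against WT share the same pair of WT libraries, so these counts are not independent of each other. The summed level of the 18 genes was 572.57 and 594.47 CPM in WT, below every mutant library (lowest 610.75, in gfi1b/1ab DM). The part of the low WT libraries in these calls was not tested.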

How the data were processed

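The authors mapped reads with STAR to GRCz11 and deposited whole-number counts of reads per Ensembl gene for each library; their table of all libraries holds the same counts in all 16 columns. Counts over both strands together were taken, without the 4 lines for unassigned reads (19.6% to 22.7% of each library). Reads that map to several places or to overlapping genes were not counted by the authors, so values of genes with near-identical copies or an antisense partner are uncertain. No column of per-sample values was left unused.

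Counts were tested with edgeR (4.0.16, R 4.3.3): TMM factors (0.956 to 1.03), filterByExpr by genotype (19903 genes kept), glmQLFit with 1 mean per genotype (8 residual degrees of freedom, common dispersion 0.00835) and glmQLFTest, with Benjamini-Hochberg adjustment. The standard error is the fold change divided by the root of F. The study's methods name DESeq2 (1.42.0 here), which was an alternative, beside other size factors, no filter, a replicate term, a model without interactions, fewer libraries and leaving out each library. The scripts were tested on simulated data. Python (3.11.15) made the tables.

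Genes are given in full where they passed the threshold in 1 of the 3 losses, changed alike in 4 or more of 7 mutants against WT, or had an interaction. The 3 per family with the most counts and the a or b partners of those named are given too. Further calls are named with fewer values. Counts replaced counts per kb of coding length, as no lengths were used here. The genes, lists and tests were chosen with earlier results of these data known. Symbols of all 68 genes matched RefSeq (GRCz12tu); no sequences or coordinates are given.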

Additional observations from a re-analysis of the deposited data

Results flagged for a closer look

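In 5 cases the effect of losing 1 gfi1 gene differed with the state of another by the edgeR interaction test. For gfi1aa and gfi1ab these were 5.17% of the tested ligand genes, beside 8.60% of all genes. The shares were 1.72% beside 4.02% for gfi1aa and gfi1b, and 1.72% beside 3.29% for gfi1b and gfi1ab. bmp1b had a term of 1.05 for gfi1aa and gfi1ab, since it was low without gfi1aa only where gfi1ab was kept. bmp7a (-0.60) and bmp1a (-0.33) had terms of the opposite sign for the same pair of genes, and these calls were lost without any 1 of 11 and 10 of the 16 libraries. fgf22 had -2.28 for gfi1aa and gfi1b, and fgf23 had -3.06 for gfi1b and gfi1ab. The terms of fgf22 and fgf23 rest on libraries with 2 to 23 and 1 to 24 counts, and the call was lost without any 1 of 14 and 12 of the 16 libraries. Groups of 2 libraries were not screened for outlying libraries. The gfi1 TM libraries differed most, with a standard deviation of log2 differences of 0.602 against 0.347 to 0.479 in the other genotypes, and gfi1 TM replicate 2 had 77.3% of its counts on genes, against 79.55% to 80.44% in the others. Without that library 4077 instead of 2896 genes were called with loss of gfi1aa, and 4 instead of 5 ligand genes.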

How the results depend on the processing

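Of 27 values of named genes, wnt16 with loss of gfi1b, fgf2, bmp5 and wnt5a with loss of gfi1ab, and the bmp1b interaction kept their call under every alternative run, and 0 of 577 alternative values changed sign. Counts of calls moved more, and the cause was not tested. DESeq2 called 1 ligand gene instead of 5 with loss of gfi1aa, 3 of 5 with loss of gfi1b, 0 instead of 2 in gfi1aa-/-, 2 instead of 4 in gfi1b-/-, 0 instead of 1 in gfi1ab-/-, 2 instead of 4 in gfi1 TM, 0 instead of 2 in gfi1aa/1b DM against gfi1b-/-, 1 instead of 5 in gfi1aa/1ab DM against gfi1ab-/-, and 0 instead of 1 for the interactions of gfi1b with gfi1aa and with gfi1ab. Without a filter on low counts the numbers were 3 with loss of gfi1aa, 3 in gfi1b/1ab DM against WT, 1 in gfi1aa/1ab DM against gfi1ab-/-, 1 in gfi1 TM against gfi1b/1ab DM and 2 for gfi1aa and gfi1b. A model without interactions called 0 (gfi1aa), 1 (gfi1b) and 4 (gfi1ab), and the 2 sides alone 0, 1 and 3. For all genes these models called 727, 307 and 2107 and 269, 126 and 1048, instead of 2896, 1939 and 4761. With only the 4 libraries compared, 0 were called in gfi1ab-/-, 2 in gfi1aa/1ab DM, 0 in gfi1 TM, 5 in gfi1aa/1b DM against gfi1b-/- and 1 in gfi1aa/1ab DM against gfi1ab-/-.

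Leaving out 1 library gave 1 to 5 ligand genes with loss of gfi1aa (lowest without gfi1aa-/- replicate 2), 2 to 7 with loss of gfi1b (without gfi1aa-/- replicate 1) and 6 to 8 with loss of gfi1ab, and 1899 to 4077, 1214 to 2738 and 3490 to 6064 genes in all. Against WT it gave 0 to 4 in gfi1aa-/-, 0 to 5 in gfi1b-/-, 0 to 1 in gfi1ab-/-, 0 to 5 in gfi1aa/1b DM, 2 to 6 in gfi1aa/1ab DM, 0 to 5 in gfi1b/1ab DM and 0 to 5 in gfi1 TM. Within backgrounds it gave 0 to 3, 1 to 5 and 0 to 1, and for the interactions 0 to 1, 1 to 4 and 0 to 2.

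Replicate numbers did not pair the libraries (28 pairs, correlations of deviations from -0.091 to 0.092), and the labels give them no other meaning. With the replicate number as a block, 3 ligand genes were called with loss of gfi1aa, 0 in gfi1ab-/- against WT, 1 in gfi1aa/1b DM against gfi1b-/-, 0 for gfi1aa and gfi1b, and 1 for gfi1aa and gfi1ab. Few counts limit the precision for fgf22, fgf23 and fgf20b, among others.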

Other observations

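grem1a, which encodes a secreted Bmp inhibitor of the Gremlin family and belongs to the list of Bmp inhibitors, is on a pair of rows of the table. On the row with counts (ENSDARG00000029546) it had 25 and 33 counts in WT, 13 and 16 in gfi1aa-/- and 11 and 9 in gfi1b-/-. There were 0 counts in each of the 6 libraries of gfi1ab-/- and of the double mutants that lack gfi1ab. The gfi1aa/1b DM libraries had 0 and 1 counts, and those of gfi1 TM 2 and 9. It passed the threshold with loss of gfi1ab (adjusted p = 0.0121, edgeR), and no fold change is given because of the libraries at 0. The gene was singled out after its values were seen, and its call was not rerun under the other settings. The other Bmp inhibitors past the threshold with this loss were chrd (-0.26, adjusted p = 0.00046), szl (-0.42, adjusted p = 0.0197) and bmper (-0.24, adjusted p = 0.0127), all lower, and fsta (0.17, adjusted p = 0.0029), which was higher, so that 5 of 14 tested were called, beside 23.9% of all genes.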
